A study of Homo sapiens with 40 samples.

Results

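Disruption of SETDB1 in A549 cells was followed by 3396 H3K4me3 peaks that appeared where an H3K9me3 peak had disappeared. They were chosen by measured values: each was an H3K4me3 peak of the knockout list that overlapped no control H3K4me3 peak and overlapped, by at least 1 bp, a control H3K9me3 peak that overlapped no knockout H3K9me3 peak. These 3396 regions, called members from here on, were 4.89% of the 69459 knockout H3K4me3 peaks and 16.2% of the 20955 that were new. The gain of H3K4me3 and the loss of H3K9me3 at them are therefore the definition and not a result, whereas H3K27ac, CTCF, H3K27me3, Hi-C and RNA-seq were not used in the choice.

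A549 is an established human lung adenocarcinoma line, per the labels. The control group was A549 cells labelled control, and the other group was A549 cells whose SETDB1 gene had been disrupted with CRISPR/Cas9. ChIP-seq had 2 libraries per mark and genotype, Hi-C had 2 per genotype and RNA-seq had 3 per genotype, among 40 samples in all. The labels give no time after editing, no details of how the control cells were handled, and no statement of whether the knockout cells were 1 clone or a pool. Nothing in them says that the replicates came from separate cultures, so p-values measure the spread between these libraries, which may be technical.

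SETDB1 is a methyltransferase that places H3K9me3, a mark of silent chromatin, on zinc finger gene clusters and on transposable elements, to which it is brought by KAP1 and KRAB zinc finger proteins. H3K4me3 is placed by the SET1 and MLL complexes and marks the start sites of active or poised genes. H3K27ac accompanies active promoters and enhancers, H3K27me3 is the Polycomb mark, and CTCF is the DNA-binding protein at which many loop anchors and domain boundaries lie. In Hi-C, chromatin separates into an open A and a closed B compartment.

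In RNA-seq the library totals ran from 18065062 to 48364919 counts. SETDB1 was expressed at 37.5, 39.6 and 38.8 CPM (the count scaled to the size of the library) in the control libraries and at 23.4, 21.2 and 21.1 in the knockout libraries. The fitted log2 difference between genotypes was -0.82 with an SE of 0.060 (quasi-likelihood test of edgeR, adjusted p = 1.7e-12). The 2 genotypes did not overlap, and SETDB1 transcript was still present in the knockout libraries. Of the markers checked, the epithelial genes were present in every library, and in all 5 the knockout values lay above the control values. KRT8 lay between 2050 and 2370 CPM in control and between 6360 and 6910 in knockout libraries, and KRT18 between 755 and 783 and between 2480 and 2710. CDH1 lay between 26.1 and 27.3 and between 51.4 and 54.4 CPM, EPCAM between 3.76 and 4.25 and between 10.3 and 11.5, and KRT7 between 1420 and 1600 and between 1630 and 1710. The T cell gene CD3E and the endothelial gene PECAM1 had 0 counts, the leukocyte gene PTPRC reached at most 0.0554 CPM, and the fibroblast genes COL1A1 and COL3A1 reached 4.14 and 1.2. The endothelial cadherin CDH5 lay between 0.206 and 0.375 CPM in control and between 3.83 and 5.21 in knockout cells.

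Each peak list was a single set of positions per mark and genotype, with no heights. Shares of peaks therefore have no replicate check. Their 95% Wilson intervals, given in parentheses, cover counting error only, and neighbouring peaks are not independent.

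Most members were narrow peaks. Their median width was 781 bp, with quartiles of 566 and 1095 bp, against 686 bp for the 17559 new H3K4me3 peaks elsewhere and 1352.5 bp for the 44308 H3K4me3 peaks shared with control cells and lying off lost H3K9me3. A tail of wide members stood out: 234 members (6.89%) were 2 kb or wider, against 258 (1.47%) of the new peaks elsewhere. Chromosome 19 held 107 of those 234, which is 45.7%. The control H3K9me3 peaks under the members had a median width of 3832 bp, against 1967 bp for the other lost peaks; a wide peak is more likely to overlap a new H3K4me3 peak, so the rule itself favours this difference. A single member sat on 2646 of the 2905 H3K9me3 peaks involved, 45 peaks carried more than 3, and the most was 18. In all, 4.70% of the 61816 lost H3K9me3 peaks had a member, so most lost H3K9me3 had no new H3K4me3 peak on it.

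Most members lay largely within lost H3K9me3: 2167 (63.8%) were wholly inside and 2757 (81.2%) had at least 50% of their length inside. How far they lay from the edges of the lost peak was not measured. A narrow peak that overlaps a much wider one will often lie wholly inside it, so these shares are a description. At the edge of the rule, 149 members overlapped by under 100 bp, the smallest overlaps being 2, 4 and 5 bp at chr3:79043466-79044203, chr13:52430807-52431695 and chr10:124291272-124291921 (hg19, as are all coordinates here). None of these 3 had H3K27ac or CTCF in either genotype. Just outside the rule, 141 new H3K4me3 peaks lay within 100 bp of a lost H3K9me3 peak, the nearest at 1 bp (chr10:19354039-19354496, chr2:191141804-191142563 and chr12:14580783-14582081), and only the chromosome 2 peak of these 3 had knockout H3K27ac.

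H3K9me3 around the members is given as a description, since the rule chose members on this mark and kept such sites out of the other new peaks. Control H3K9me3 peaks covered 81.3% of member midpoints and still 39.4% of the positions 5 kb away on the side of lower coordinates and 35.6% of those 10 kb away on the other side. For new H3K4me3 peaks elsewhere these shares were 4.17%, 12.3% and 12.4%. In knockout cells H3K9me3 covered 1.56% of the positions 5 kb from members on the side of lower coordinates, against 6.81% around the new peaks elsewhere, and the median gap from a member to the nearest knockout H3K9me3 peak was 134 kb. The distance to H3K4me3 already present in control cells was alike in members and in other new peaks: the nearest control H3K4me3 peak lay at a median of 16.4 kb from members and 17.1 kb from the other new peaks. Of the members, 62.1% were more than 10 kb from any control H3K4me3 peak.

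**Figure D1:**
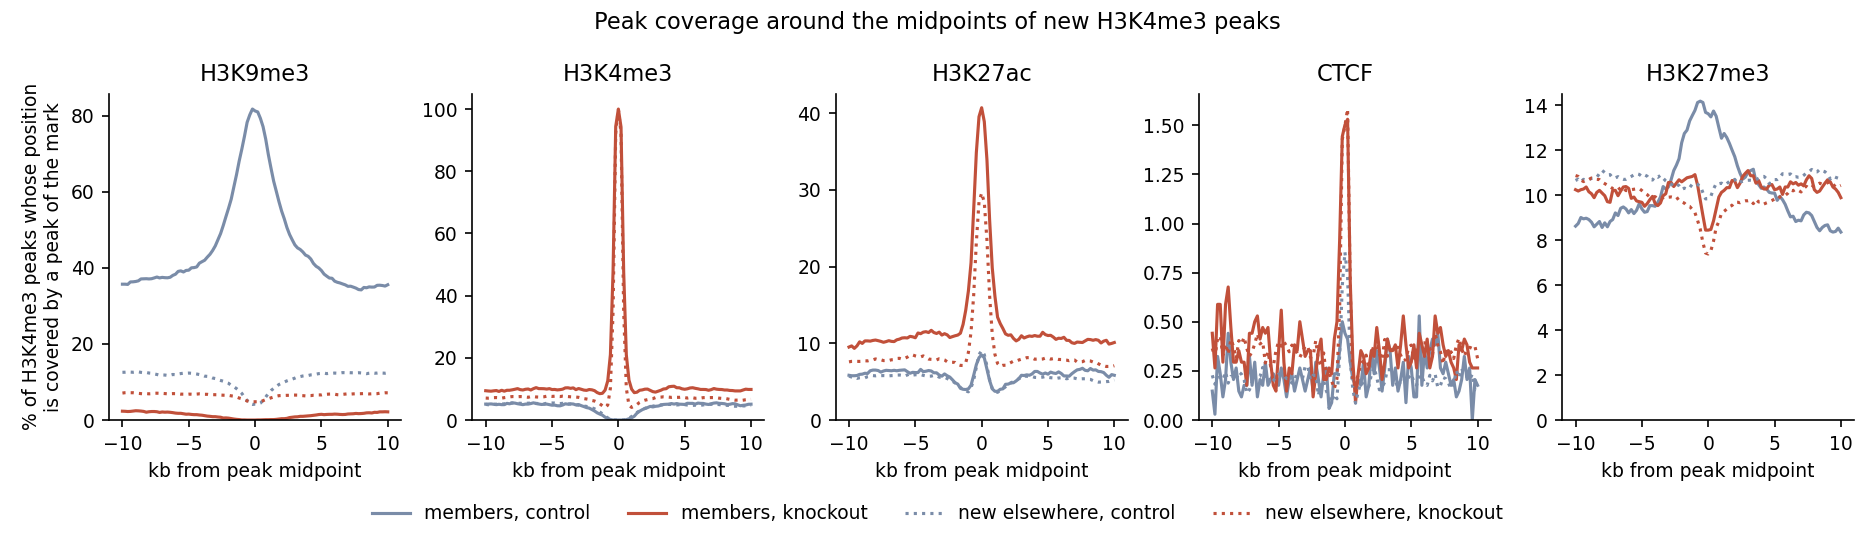
Share of new H3K4me3 peaks (y axis, %) whose position at a given distance from the peak midpoint (x axis, kb) is covered by a peak of each mark; solid lines are members, dotted lines the new peaks elsewhere, blue control and red knockout cells, and each panel has its own y axis. Control H3K9me3 covers 81.3% of member midpoints by the way they were chosen, knockout H3K27ac covers 40.7%, and knockout CTCF covers 1.502%.

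H3K27ac was the most frequent of the other marks at members in knockout cells. A knockout H3K27ac peak overlapped 1468 members, 43.2% (41.6 to 44.9), and a control H3K27ac peak overlapped 330, 9.72% (8.77 to 10.8). The mark was found only in knockout cells at 1152 members (33.9%), in both genotypes at 316 and only in control cells at 14. Control H3K27ac therefore lay at roughly the same share of members as of new H3K4me3 peaks elsewhere, where it was 10.1% (9.68 to 10.6), but knockout H3K27ac lay at 31.3% of those (30.6 to 32.0). At the 4196 H3K4me3 peaks that were shared with control cells and lay on lost H3K9me3, the knockout share was 82.3%. Members thus carried H3K27ac more often than other new peaks and less often than H3K4me3 peaks that control cells already had; the intervals of these shares do not overlap.

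The H3K27ac signal was local. Knockout H3K27ac covered 40.7% of member midpoints and 11.0% of positions 5 kb away on the side of higher coordinates, and in control cells these values were 8.48% and 5.98%. Because knockout H3K27ac was found more often at wider peaks, its shares were also set side by side within classes of width. The members' share was the larger in each of the 6 classes, but the 2 intervals overlapped under 500 bp, from 1500 to 2000 bp and at 2000 bp and above. The shares were 17.8% against 14.96% under 500 bp, 29.4% against 23.9% from 500 to 750 bp, 47.5% against 38.4% from 750 to 1000 bp, 60.2% against 53.2% from 1000 to 1500 bp, 69.1% against 65.1% from 1500 to 2000 bp and 83.8% against 74.0% at 2000 bp and above. The spread between width classes, from 17.8% to 83.8% among members, was wider than the gap between members and other new peaks in any class. Where the wider 50% of each H3K4me3 list was used, the rule gave 1488 members and 74.6% of them had knockout H3K27ac.

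**Figure D2:**
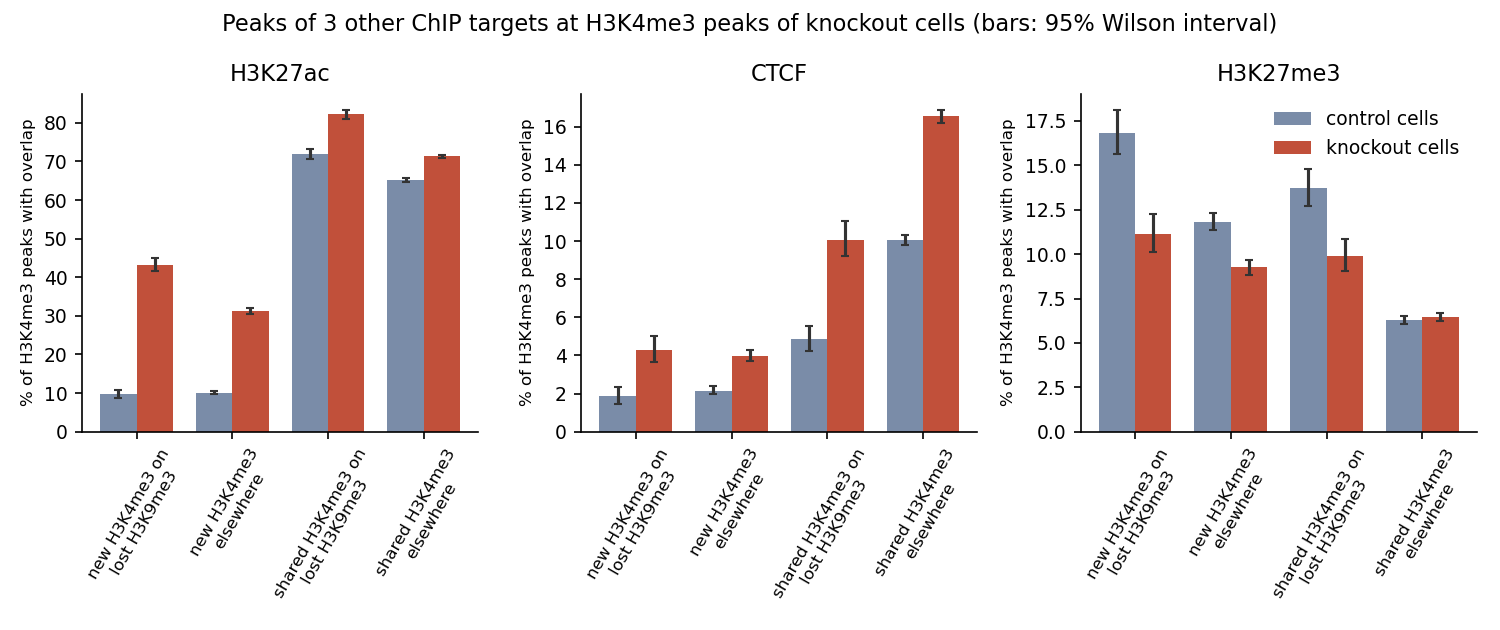
Share of knockout H3K4me3 peaks (y axis, %) that overlap a peak of H3K27ac, CTCF or H3K27me3 in control cells (blue) and in knockout cells (red), for the 4 classes of H3K4me3 peak on the x axis; error bars are 95% Wilson intervals and each panel has its own y axis. At members H3K27ac goes from 9.72% to 43.2%, CTCF from 1.86% to 4.27% and H3K27me3 from 16.8% to 11.2%.

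The 5 widest members all had H3K27ac in knockout cells only. They were chr19:23552649-23579079 (26431 bp), chr19:23728583-23754553 (25971 bp), chr19:53435537-53452068 (16532 bp), chr5:178252459-178262889 (10431 bp) and chr19:20276862-20286324 (9463 bp). The first had a control CTCF peak and no knockout CTCF peak. The chromosome 5 member had H3K27me3 in both genotypes, and in its 100 kb bin the compartment score was -0.0985 and -0.11 in the control replicates against 1.22 and 1.10 in the knockout replicates.

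CTCF was rare at members. A knockout CTCF peak overlapped 145 of them, 4.27% (3.64 to 5.00), and a control CTCF peak overlapped 63, 1.86% (1.45 to 2.37). New H3K4me3 peaks elsewhere had 3.99% and 2.16%, and H3K4me3 peaks shared with control cells off lost H3K9me3 had 16.6% and 10.1%. The knockout CTCF list was itself longer, with 34474 peaks against 23903, and the knockout share was also larger in each of the 4 classes of H3K4me3 peak; the part of list length in the members' values was not tested. At the 234 members of 2 kb or wider, control CTCF lay at 10 and knockout CTCF at 9. Only 40 members (1.18%) had both H3K27ac and CTCF in knockout cells. CTCF was found at 2.73% (2.01 to 3.69) of the members with knockout H3K27ac and at 5.45% (4.52 to 6.55) of those without it. The order was the same at new H3K4me3 peaks elsewhere, 2.77% and 4.54%, and over all knockout H3K4me3 peaks, 11.5% and 13.7%. Of the width classes of members, the one under 500 bp had the largest share with CTCF, 6.53%, and the smallest with H3K27ac, 17.8%. The part of width in this difference was not tested.

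CTCF peaks of control cells were often missing at members in the knockout list, although that list was longer. Of the 63 members with a control CTCF peak, 30 had no knockout CTCF peak, 47.6% (35.8 to 59.7). The same share was 18.7% (15.1 to 22.97) of 379 new H3K4me3 peaks elsewhere and 3.19% of 4458 shared peaks off lost H3K9me3. On chromosome 19 it was 16 of 19 members, and on the other chromosomes 14 of 44, or 31.8% (20 to 46.6). CTCF was present only in knockout cells at 112 members (3.298%), against 2.23% of the new peaks elsewhere.

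The widest members with both knockout H3K27ac and knockout CTCF were chr19:58532548-58537542 (4995 bp), chr19:53493988-53498419 (4432 bp), chr19:12034232-12037719 (3488 bp), chr19:12249525-12252638 (3114 bp) and chr7:16965354-16968275 (2922 bp). All 5 had both marks in knockout cells only. The chromosome 7 member lay in an A bin of both genotypes, with a score of 0.523 and 0.668 in control and 0.632 and 0.614 in knockout replicates, and these overlapped. The bin of chr19:58532548-58537542 went from B to A, from -1.324 and -1.275 in the control to 0.486 and 0.505 in the knockout replicates. That of chr19:53493988-53498419 did so too, from -1.44 and -1.37 to 0.384 and 0.351. The remaining members of this group had no bin value.

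H3K27me3 had lain at more members before than after. A control H3K27me3 peak overlapped 572 members, 16.8% (15.6 to 18.1), and a knockout peak overlapped 379, 11.2% (10.1 to 12.3). It was lost at 325 members, kept at 247 and found only in knockout cells at 132. New H3K4me3 peaks elsewhere had 11.8% in control and 9.25% in knockout cells. The knockout list of this mark was shorter, with 67482 peaks against 90822, and the part of that in the members' values was not tested. H3K27ac and H3K27me3 seldom met, at members as at H3K4me3 peaks in general: knockout H3K27me3 was at 1.57% of the members with knockout H3K27ac and at 18.5% of those without. Over all knockout H3K4me3 peaks these shares were 1.56% and 16.9%. Members with control H3K27me3 had knockout H3K27ac at 19.4% (16.4 to 22.9), against 48.1% (46.2 to 49.9) of the others. None of the 3 marks was found in knockout cells at 1488 members, 43.8% (42.2 to 45.5), and at 57.2% of the new peaks elsewhere.

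The compartment score was deposited per 100 kb bin, and a bin with a positive value is called A here and one with a negative value B. The labels do not state the orientation; by this reading 82.0% of the H3K4me3 peaks shared off lost H3K9me3 lay in bins that were A in both genotypes, against 49.3% of all bins. A value in both genotypes was present for 3126 members, and 270 (7.95%) had none. Of the members without a value, 150 were on chromosome 19, where they made up 30.7% of members.

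Members lay in both compartments in control cells and mostly in A in knockout cells. In control cells 54.2% of them were in A (52.4 to 55.9), close to the 55.2% of all bins and below the 70.9% of all lost H3K9me3 peaks. In knockout cells 76.3% of members were in A, against 70.9% of new H3K4me3 peaks elsewhere and 80.8% of all knockout H3K4me3 peaks. Of the new peaks elsewhere, 57.0% were in A in control cells. Bins that were B in control and A in knockout held 770 members, 24.6% (23.2 to 26.2), although such bins were 5.87% of all bins and held 9.02% of lost H3K9me3 peaks. New H3K4me3 peaks elsewhere lay there in 17.0% of cases (16.5 to 17.6), and shared H3K4me3 peaks on lost H3K9me3 in 7.70%. The opposite switch held 79 members (2.53%). Seen from the lost H3K9me3 peaks, a member sat on 10.5% (9.66 to 11.3) of those in bins going from B to A, on 4.05% in bins that stayed A, on 4.52% in bins that stayed B and on 1.56% in bins going from A to B.

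The 4 replicate columns of the score went into a limma fit, and a bin is called where the adjusted p is under 0.05. Over all 26503 bins tested, 21.5% were called higher in knockout cells and 37.3% lower. Of the 2225 tested bins with a member, 1013 (45.5%) were called higher and 395 (17.8%) lower. Bins with new H3K4me3 peaks but no member were called higher in 33.5% of 8729 cases, and bins with no new H3K4me3 peak in 11.4% of 15549.

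The share called higher was larger the more members a bin held. It was 39.6% of 1765 bins with 1 member, 57.8% of 296 bins with 2 and 87.8% of 164 bins with 3 or more. In this last class the median score was -0.67 and -0.68 in the control replicates and 0.27 and 0.23 in the knockout replicates. In bins with 1 member these medians were 0.37 and 0.36 in control and 0.49 and 0.48 in knockout cells. In every class of bins with members both knockout medians were above both control medians. Without chromosome 19, 103 of 123 bins with 3 or more members were called higher (83.7%), on 19 chromosomes.

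**Figure D3:**
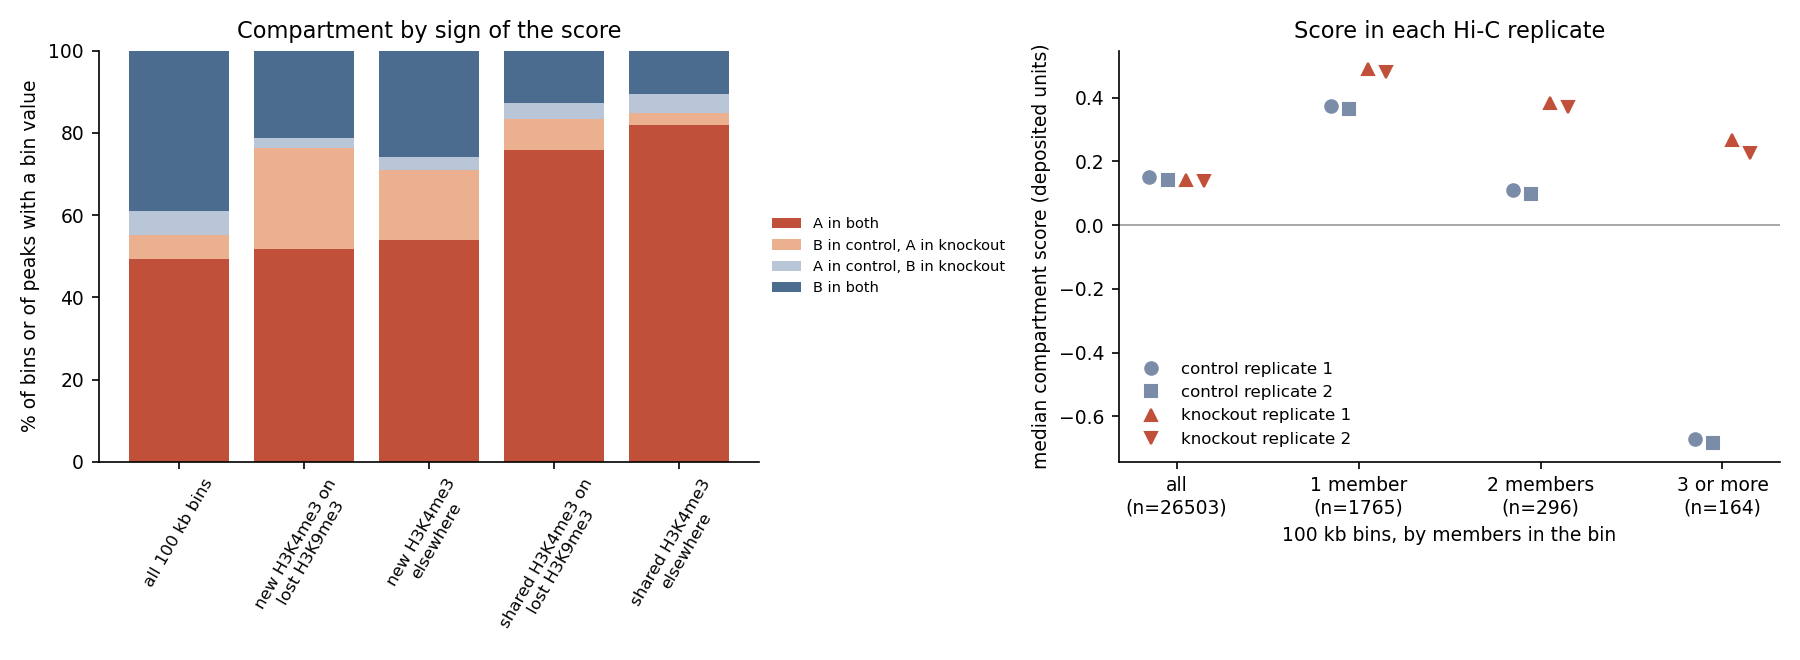
Left, share (y axis, %) of all bins and of each class of H3K4me3 peak in bins that were A or B in control and knockout cells. Right, median compartment score (y axis, deposited units) in each of the 4 Hi-C replicates for all bins tested and for bins with 1, 2 and 3 or more members (x axis); in bins with 3 or more, control replicates are near -0.67 and knockout replicates near 0.25.

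By compartment, H3K27ac was most frequent at members in bins that stayed A. Knockout H3K27ac was found at 52.3% of members in bins that were A in both genotypes, 36.1% (32.8 to 39.6) in bins going from B to A and 31.6% in bins that stayed B. New H3K4me3 peaks elsewhere had 42.7%, 21.6% and 15.3% in the same bins. CTCF was at 4.16% (2.96 to 5.81) of the members in bins going from B to A, near the 4.27% of all members. Control H3K27ac was at 1.43% of the members in those bins, 11 of 770.

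Members were densest on chromosome 19. It held 488 members, 14.4% of them, at 8.25 per Mb, whereas the other chromosomes had between 0.253 per Mb on chromosome 22 and 1.67 per Mb on chromosome 12. Members were 55.6% (52.3 to 58.8) of the 878 new H3K4me3 peaks on chromosome 19 and 14.5% (14.0 to 14.98) of the 20077 on the other chromosomes, where the range was 7.98% on chromosome 4 to 20.01% on chromosome 2. A member sat on 15.2% of the lost H3K9me3 peaks of chromosome 19, against 1.85% to 5.82% elsewhere. A wide lost peak is more likely to hold a member, and the widths of lost peaks were not compared between chromosomes. Chromosome 19 is known for its large clusters of KRAB zinc finger genes, though no gene was placed at a member here.

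**Figure D4:**
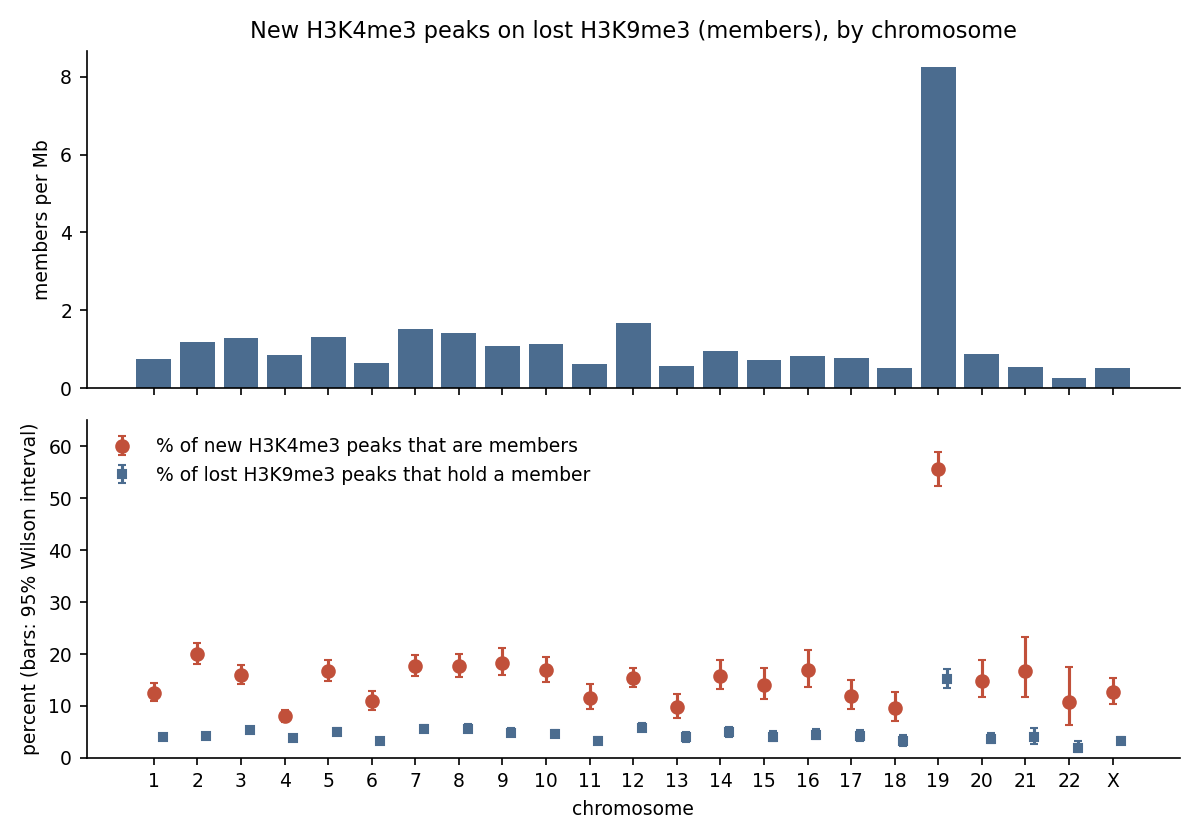
Top, members per Mb (y axis) on each chromosome (x axis). Bottom, share (y axis, %) of new H3K4me3 peaks that are members (red circles) and of lost H3K9me3 peaks that hold a member (blue squares), with 95% Wilson intervals; chromosome 19 is at 55.6% and 15.2%, and no other chromosome is above 20.01% and 5.82%.

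On chromosome 19 the members had been without H3K27ac in control cells. A control H3K27ac peak lay at 6 of 488 (1.23%) and a knockout peak at 247 (50.6%, 46.2 to 55.0). New H3K4me3 peaks elsewhere on chromosome 19 had 12.3% and 40.3%. On the other chromosomes 11.1% of members had control H3K27ac and 42.0% (40.2 to 43.8) had knockout H3K27ac. CTCF in knockout cells was at 6.76% (4.86 to 9.35) of chromosome 19 members and at 3.85% (3.21 to 4.61) of the others. New H3K4me3 peaks elsewhere on chromosome 19 had knockout CTCF at 10.5% (7.84 to 13.9), with an interval that overlaps that of the members there. H3K27me3 was at 5.12% of chromosome 19 members in control and 6.56% in knockout cells, and at 18.8% and 11.9% of the members on other chromosomes. For this mark the other new H3K4me3 peaks of chromosome 19 had 8.97% in control and 20.3% (16.6 to 24.5) in knockout cells.

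The compartment of chromosome 19 members was also different. Of those with a value, 55.3% (50 to 60.5) lay in bins going from B to A, 37.0% in bins that stayed B and 6.81% in bins that stayed A. On the other chromosomes these shares were 20.9%, 19.3% and 57.1%. The median score at chromosome 19 members was -1.09 and -1.11 in the control replicates and 0.16 and 0.13 in the knockout replicates. At members on other chromosomes it was 0.23 and 0.24 in control and 0.45 in both knockout replicates.

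RNA was also compared by chromosome. Over all 15597 tested genes placed on a chromosome, 9.85% were at least 2-fold higher in knockout cells with an edgeR adjusted p under 0.05. On chromosome 19 this share was 25.8%, with a median log2 fold change over its genes of 0.34, against 3.77% (chromosome 15) to 15.3% (chromosome 12) on the others. On chromosome 2 that median was -0.54 and on chromosome 12 it was 0.37. Members off these 2 chromosomes had knockout H3K27ac at 43.9% and lay in bins called higher in 53.6% of cases, near the 43.2% and 55.3% of all members.

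Members were grouped into runs by distance. Joined wherever the gap was within 100 kb, the 3396 members formed 1932 runs, of which 1448 were single members (42.6% of members) and 84 held 5 or more. These 84 runs held 1024 members (30.2%) on 15 chromosomes, with 18 runs on chromosome 19. Of the 76 with a tested bin, all bins were called higher in 63, and a bin was called lower in 6. By comparison, 21.5% of all bins tested were called higher and 37.3% lower. Neighbouring bins of a run are not independent, and no such count for runs of other new peaks is given here. The share of members in bins going from B to A was 9.66% (8.22 to 11.3) for single members, 18.2% in runs of 2 to 4 and 55.8% (52.5 to 59.1) in runs of 5 or more. Off chromosome 19 the share in runs of 5 or more was still 53.6%. Knockout H3K27ac was at 42.5% (40.02 to 45.1), 45.6% and 42.1% of members in the same 3 classes, and off chromosome 19 it was at 34.8% (31.1 to 38.7) in runs of 5 or more.

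The run with most members was chr19:23252681-24325069, with 89 members over 1072.4 kb. Control H3K9me3 peaks covered 90.3% of it and knockout peaks 0.991%, while H3K4me3 peaks went from 8 to 115. Runs are made of members, so changes of H3K9me3 and H3K4me3 in this and the following runs are a description and not a result. Knockout H3K27ac was at 59 of the 89 members and CTCF at 5. All 12 bins were B in both genotypes and all 12 were called higher, with medians of -0.97 and -1.002 in the control and -0.18 and -0.19 in the knockout replicates. The score thus came nearer to 0 in this run without changing sign.

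**Figure D5:**
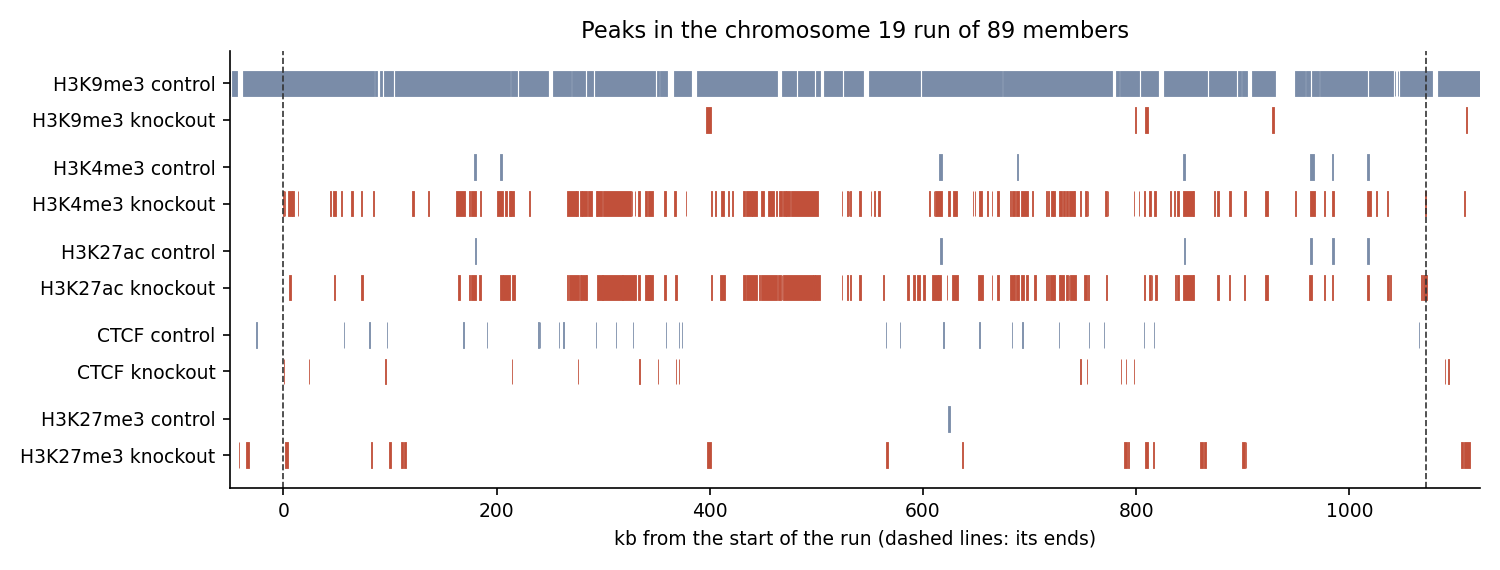
Peaks of 5 ChIP targets in the chromosome 19 run of 89 members, drawn to scale along the x axis (kb from the start of the run, dashed lines at its ends), with a row for control (blue) and for knockout (red) cells for each target. H3K9me3 covers 90.3% of the run in control and 0.991% in knockout cells, and the H3K4me3 row goes from 8 to 115 peaks. These changes are a description only, since members were chosen on these marks.

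The next 4 runs by number of members differed in sign. In chr19:53043980-53549472, with 49 members, H3K9me3 cover went from 93.0% to 0 and all 6 bins went from B to A, from -1.33 and -1.41 in the control to 0.32 and 0.30 in the knockout replicates; 25 members had H3K27ac. The run chr3:94873203-96475890 had 39 members, 14 with H3K27ac and none with CTCF, and all 17 bins went from B to A, from -0.68 and -0.69 to 0.55 and 0.60. H3K9me3 covered only 37.2% of that run in control cells, in 168 separate peaks. The runs chr19:19927504-20472527 (43 members, 26 with H3K27ac) and chr19:21578540-22283095 (37 members, 13 with H3K27ac) had values in 0 of 6 and 2 of 8 bins. Both valued bins of the last run stayed B and were called higher, with medians of -1.20 and -1.29 in the control and -0.37 in both knockout replicates.

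A run on chromosome 5 differed in CTCF and H3K27me3, and is described because of these values. In chr5:140484850-140944754, with 27 members, 14 members had knockout CTCF, 7 had H3K27ac, and control H3K27me3 lay at 17 members against 8 in knockout cells. H3K9me3 cover went from 81.6% to 0. All 6 bins were called higher, with medians of 0.03 and -0.004 in the control and 1.15 and 1.23 in the knockout replicates. These 14 members were 9.66% of all 145 members with CTCF, and no other run held more than 5; outside this run 3.89% of members had CTCF. The long arm of chromosome 5 carries the clustered protocadherin genes, whose promoters are known CTCF targets.

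Among single lost H3K9me3 peaks, the one with most members was chr19:23927533-24029929, where 18 members covered 34.1% of 102397 bp and H3K27ac peaks numbered 0 in control and 19 in knockout cells. It was followed by chr19:37897854-38045905 with 17 members, chr5:140609756-140828318 with 14, chr19:38047966-38241677 with 13 and chr19:58421428-58658053 with 12. CTCF peaks within the chromosome 5 peak numbered 3 in control and 21 in knockout cells. In the 4 on chromosome 19 they went from 5 to 2, 4 to 1, 5 to 1 and 8 to 6, the reverse order.

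The genes of H3K4 methylation were read from RNA-seq across the genotypes. Of a list of 31 writers, shared subunits, erasers, readers and H3K27 acetyltransferases, 30 were tested, 15 were higher and 9 lower in knockout cells, but 9 were higher and 10 lower with upper-quartile scaling. Over all 17767 genes tested, 32.8% (5825) were called higher and 30.0% (5332) lower, and with upper-quartile scaling 5432 were higher and 5802 lower. The median log2 fold change was 0.11 in the list and 0.00 over all genes. By role, 4 of 7 tested writers rose and 2 fell, 3 of 9 shared subunits rose and 4 fell, 3 of 5 erasers rose and 2 fell, both acetyltransferases rose, and 3 of 7 readers rose and 1 fell.

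Values by library were far apart for only a few of these genes. ING4, a reader of H3K4me3 in an acetyltransferase complex, was at 11.3, 10.4 and 11.4 CPM in control and 19.6, 21.8 and 21.1 in knockout libraries, a log2 difference of 0.92 (SE 0.074, adjusted p = 1.6e-11 by edgeR). SETD1B, the catalytic subunit of a SET1 complex, was at 19.1, 23.3 and 22.5 CPM in control and 34.9, 39.7 and 34.0 in knockout libraries, a log2 difference of 0.76 (SE 0.073, adjusted p = 3.2e-09 by edgeR). For both genes the genotypes did not overlap, and both lie on chromosome 12, where the median over all genes was 0.37. KDM5B, an H3K4 demethylase, had a log2 fold change of 0.42. ING5, another reader, had -0.36 and lies on chromosome 2, where the median was -0.54, and PAXIP1, a subunit of MLL complexes, had -0.34; all 3 passed the edgeR test. The CTCF gene itself had a log2 difference of 0.14 (adjusted p = 0.0087 by edgeR), with 87.0 ± 2.28 CPM in control and 95.7 ± 1.20 in knockout cells (SD, n = 3).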

How the data were processed

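Members and gene lists were chosen with earlier results of these data known. Peak and TAD lists were deposited as positions only, 1 list per mark and genotype; how the 2 libraries were combined and the caller's settings are not given in the sources used here. The submitters' processing notes name Bowtie2 2.2.3, SAMtools 1.5, Picard, MACS2, STAR 2.6.1c, edgeR 3.30.0 and hg19. Gene values were deposited as whole-number counts from stranded total RNA, per the labels; the counter's strand setting is not given in the sources used here. Compartment values were deposited as a signed score in 100 kb bins, 1 column a replicate and 1 a genotype, by a method not given in the sources used here. Compartment states used the genotype columns and tests the replicate columns; 26503 of 30376 bins had all 4 replicate values. The knockout H3K4me3 libraries carry a mark label that lacks a digit so their description set the group. Columns of samples left unmapped numbered 0. Input libraries were not used here.

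Overlaps of at least 1 bp were counted with numpy 2.4.6 and pandas 2.3.3 in Python 3.11.15, and the number of members was checked with bedtools 2.31.1. Wilson intervals came from scipy 1.17.1. In R 4.3.3, edgeR 4.0.16 (quasi-likelihood test after TMM scaling and filterByExpr) was run on counts and limma 3.58.1 on bins. Genotype was the sole term of both fits, and p-values were adjusted by Benjamini-Hochberg with a threshold of 0.05. Of 62486 gene IDs, 93.8% matched a symbol; the chromosome of a gene was read from RefSeq (GRCh38.p14), and nothing else was taken from that build. All RNA-seq libraries of 1 genotype differed by more than sampling noise. On simulated counts for 17767 genes with 200 changed 2-fold, the edgeR fit recovered 87% and 1.69% of its calls were false. On simulated bins with equal noise and 13252 shifted upward by the same amount, limma recovered 100% with 2.34% false. Smaller changes were not simulated, so these shares do not apply to them. Besides the markers, named genes were SETDB1 and the list genes that passed the test and had the 5 largest changes of the list. Named regions were the 5 widest members and the 5 widest with knockout H3K27ac and CTCF. Others were the 5 runs and 5 lost peaks with most members, and the 3 members and 3 other peaks nearest to the overlap threshold. The chromosome 5 run was added after its values were seen. The CTCF gene and the further runs of the closing section were also named outside these rules. Alternatives were other overlap, width, margin, bin, scaling and filter rules, DESeq2 1.42.0, a replicate block and leaving out each replicate.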

Additional observations from a re-analysis of the deposited data

How the results depend on the processing

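Of 149 values recomputed under an alternative, 132 stayed within their interval, on the same side of the test or, for counts of members and of genes, within 1.5 times; 17 moved, and no tested value changed sign. The balance of the H3K4 gene list did turn with upper-quartile scaling, from 15 higher and 9 lower to 9 higher and 10 lower. The balance over all genes turned as well, from 5825 higher and 5332 lower to 5432 and 5802. Keeping the wider 50% of each H3K4me3 list gave 1488 members, with knockout H3K27ac at 74.6%, CTCF at 5.51%, H3K27me3 at 8.54% and 56.5% in control A bins. A margin of 1 kb around members gave 46.2%, 5.77% and 16.6% for the same 3 marks. Requiring 50% of the member on the lost peak put 57.2% of members in bins called higher, against 55.3% with any overlap. Scaling the score columns to unit SD gave 51.9%, and the range without 1 Hi-C library at a time was 49.5% to 54.7%, the lowest without knockout replicate 2. Over all bins tested, 21.5% were called higher in the main fit and 20.3% with scaling. That share was 20.8% and 21.6% without control replicates 1 and 2, and 17.2% and 17.4% without knockout replicates 1 and 2. Without chromosome 19, an alternative added after the data were seen, control A bins held 59.8%, bins going from B to A 20.9% and bins called higher 50.7%. Using bins above the 10th percentile of absolute score, these first 2 shares were 61.4% and 21.2%, and 3.54% of all bins went from B to A. With the replicate block 56.0% of members lay in bins called higher and 26 genes of the H3K4 list were called, against 24; same-numbered libraries correlated at 0.111, 0.0641 and 0.0467 in RNA-seq and at -0.00257 in Hi-C, so the numbers were not taken as pairs. Genes with a start site at a member were not run, since no annotation of the build of the files was used here, and no sequence is printed for the same reason. Peak depth is unknown, so a missing peak is not the absence of a mark.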

Other observations

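TAD boundaries lay nearer to members in knockout cells. A boundary of the 7011 in the control list was within 20 kb of 245 member midpoints, 7.21% (6.39 to 8.13), and one of the 7205 in the knockout list was within 20 kb of 327, 9.63% (8.68 to 10.7). The median distance from members was 167.8 kb in control and 120.1 kb in knockout cells, and from new H3K4me3 peaks elsewhere it was 122.7 and 109.8 kb. For new H3K4me3 peaks elsewhere the shares within 20 kb were 9.58% and 10.4%, and for H3K4me3 peaks shared off lost H3K9me3 they were 17.0% and 17.2%. A knockout boundary within 20 kb, with no control boundary within 40 kb, was found at 86 members (2.53%, 2.06 to 3.12) and the reverse at 12 (0.353%). At new H3K4me3 peaks elsewhere these shares were 1.23% (1.08 to 1.40) and 0.427%. At shared H3K4me3 peaks on lost H3K9me3 they were 0.953% and 0.453%, so knockout-only boundaries were the more frequent kind there too. For members on chromosome 19 the numbers were 42 of 488 (8.61%) and 5, and for members on the other chromosomes 44 of 2908 (1.51%, 1.13 to 2.03) and 7. Boundaries lie on a 20 kb grid, and there is 1 list per genotype, so these values have no replicate check.

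Further runs are given for their values. In chr2:82431712-83065685, 25 members included 2 with knockout H3K27ac, and all 7 bins went from B to A, from -0.56 and -0.59 in the control to 0.16 and 0.17 in the knockout replicates. In chr7:63893783-64194410, 19 members included 6 with H3K27ac and 7 with knockout H3K27me3, against 0 with control H3K27me3, and the 3 bins with a value went from -0.52 and -0.49 to 1.16 and 1.20. In chr19:37964109-38221752, 21 of 30 members had H3K27ac and control H3K9me3 covered 99.2% of the run.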
